A study of Mus musculus with 8 samples.

Results

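Cholesterol is built from acetyl units in a chain of enzyme steps that runs through mevalonate, the isoprenoid pyrophosphates, squalene and lanosterol. The transcription factors SREBP-2 and SREBP-1 switch on the genes of the chain when sterols in the endoplasmic reticulum are low, and INSIG proteins hold them back when sterols are ample. Muscle makes cholesterol for its membranes, and the isoprenoids of the same chain feed coenzyme Q, dolichol and the lipid anchors of small GTPases.

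Described here are 7 enzymes of this chain, Hmgcs1, Idi1, Fdps, Fdft1, Sqle, Lss and Cyp51, taken by gene symbol from the probe sets that the platform annotation gives exactly 1 symbol. All 7 were among the 19938 genes measured. A gene with several probe sets is represented by the one with the highest mean over the 8 arrays, which applied to Idi1 and Fdft1. The members comprise enzymes only and no lipoprotein receptor.

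The samples are gastrocnemius, a calf muscle in which fast fibres prevail, from 4 knockout samples (KO, labelled HADAC5 KO) and 4 samples of wild type littermates (WT, labelled HDAC5 WT). HDAC5 is a class IIa histone deacetylase. Per the labels, all mice were 30 weeks old, ate low-fat chow and had no further treatment, so both groups share diet and age. The part of Hdac5 that was deleted and the sex of the mice are not stated in the labels. Nor do the labels say that each array came from a different animal, so the spread behind each p-value may be technical.

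Across all genes, 13 of 19938 (0.0652%) passed the test for a difference between genotypes, with 8 higher and 5 lower in KO. The targeted gene, Hdac5, had a log2 signal of 8.33 ± 0.04 in KO and 9.83 ± 0.08 in WT (SD, n = 4 each), with no overlap. Skeletal muscle markers averaged 14.30 to 14.34 in KO and 14.33 to 14.36 in WT samples. Hepatocyte markers, of a tissue where sterol synthesis is strong, averaged 6.55 to 6.77 in KO and 6.61 to 6.82 in WT over the 5 measured of 6. The 25th percentile of all genes was 6.87. The means of Apoa1 (7.68 in KO, 7.83 in WT), Alb (7.04 and 7.02) and Tat (6.92 and 6.96) lay above it, and those of Ttr and Cyp7a1 below it. The 7 slow fibre markers averaged 10.73 to 11.39 in KO and 11.46 to 11.87 in WT, and the 8 macrophage markers 8.62 to 9.00 in KO and 8.31 to 8.72 in WT. Their part in the results below was not tested. The first principal component of the gene table, 34.1% of the variance, set KO sample 1 (16.5) at its upper end and WT sample 4 (-18.8) at its lower end, the sign of the component being arbitrary.

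Promoter sequence was at hand for 4 of the 7 enzymes and is shown because SREBP, NF-Y and Sp1, the factors known to act together on this pathway, bind short motifs close to the start of transcription. The stretches below are RefSeq sequence of build GRCm38.p6 on the strand of the gene, upstream of the annotated start, and capitals mark matches on either strand to TCACNCCAC (the consensus sterol regulatory element), CCAAT (the NF-Y box, ATTGG on the other strand) or GGGCGG (the GC box bound by Sp1, CCGCCC on the other strand). The Hmgcs1 stretch lies at chr13:119690102-119690344, plus strand, the Idi1 stretch at chr13:8885525-8885605, plus strand, the Lss stretch at chr10:76531427-76531559, plus strand, and the Cyp51 stretch at chr5:4104710-4104844, minus strand.
Hmgcs1: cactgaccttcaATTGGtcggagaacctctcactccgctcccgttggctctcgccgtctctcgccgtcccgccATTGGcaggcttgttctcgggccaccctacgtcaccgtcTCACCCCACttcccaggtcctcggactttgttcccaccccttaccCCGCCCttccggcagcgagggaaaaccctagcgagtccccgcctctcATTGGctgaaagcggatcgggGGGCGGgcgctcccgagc
Idi1: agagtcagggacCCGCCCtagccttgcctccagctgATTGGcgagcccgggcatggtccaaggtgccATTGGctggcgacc
Lss: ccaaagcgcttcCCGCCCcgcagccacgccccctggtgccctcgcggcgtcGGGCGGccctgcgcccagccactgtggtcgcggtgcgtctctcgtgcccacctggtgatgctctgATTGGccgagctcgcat
Cyp51: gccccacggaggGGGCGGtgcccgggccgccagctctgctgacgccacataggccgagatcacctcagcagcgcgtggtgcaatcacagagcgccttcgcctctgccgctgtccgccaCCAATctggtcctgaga

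Within the 250 bases before the start, the CCAAT and GC boxes were each present in 4 of 4 of these promoters, and in 33.8% and 32.7% of the 32851 promoters of the same length. The TCACNCCAC element was found in Hmgcs1 alone of the 4, from base 137 to base 129 before the start, and in 1.05% of all promoters. It overlaps neither of the other motifs there. A match describes the letters and is not a measured binding site, and a missing match says only that these letters are not in this window.

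None of the 7 enzymes passed for a difference between genotypes by limma's moderated test with Benjamini-Hochberg adjustment over all genes. At an adjusted p under 0.05, 0 of 7 passed, where 0.0652% of all genes did (0.0401% higher and 0.0251% lower in KO). At an unadjusted p under 0.05 in limma the count was again 0 of 7, where 7.9% of all genes lay, and in 0 of 7 did the 4 KO values clear the 4 WT values, as they did in 4.9% of all genes. The KO mean was higher for 4 and lower for 3, and the median difference was 0.02 on the log2 scale, beside 0.0030 over all genes. In whole muscle, fewer cells of a type and less RNA per cell cannot be told apart.

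**Figure D1:**
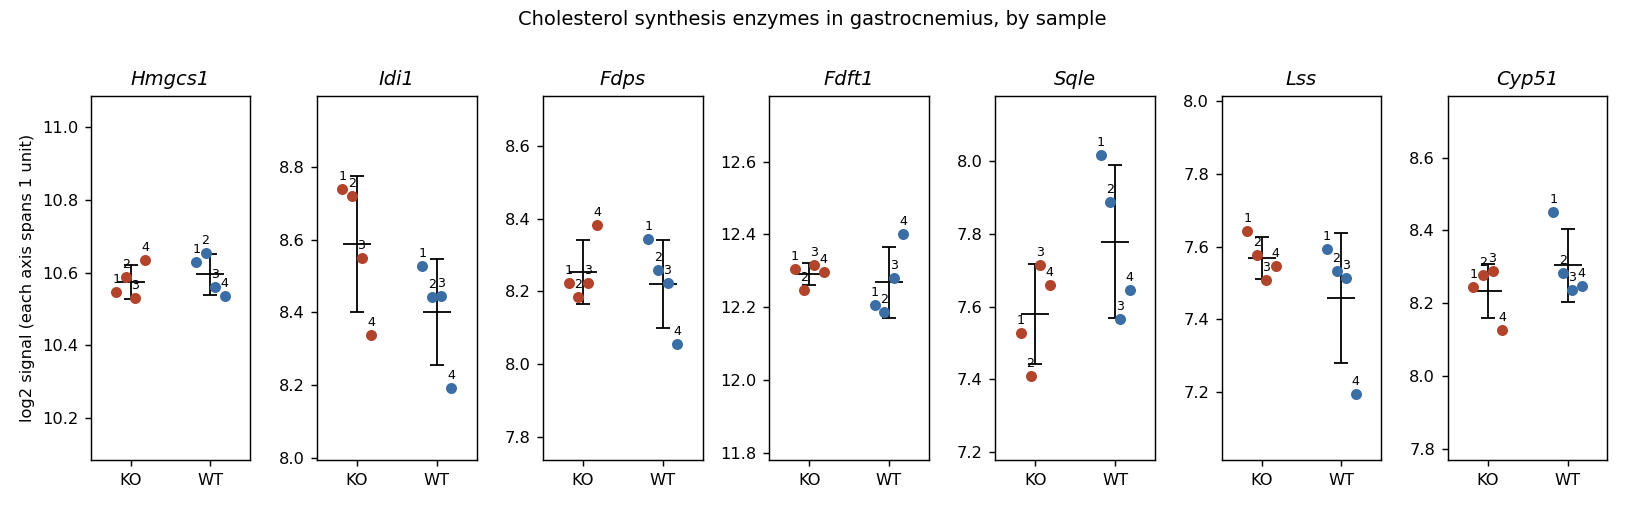
Log2 signal (y axis, 1 log2 unit per panel) of the 7 enzymes in 4 KO samples (red, left) and 4 WT samples (blue, right). Points carry the sample number, and the black bar is the mean ± SD. KO and WT points overlap in each of the 7 panels, and the widest gaps between the means are those of Sqle (-0.20) and Idi1 (0.19).

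Hmgcs1, the cytosolic HMG-CoA synthase that joins acetoacetyl-CoA and acetyl-CoA at the entry to the pathway, was the steadiest member. Its log2 signal was 10.55, 10.59, 10.53 and 10.63 in KO samples 1 to 4, against 10.63, 10.65, 10.56 and 10.54 in WT samples 1 to 4. The values interleave, and all 8 lie within 0.12. The difference was -0.02 (SE 0.056, limma adjusted p = 0.955). As a ratio, KO signal was 0.986 of WT signal, with a 95% interval from 0.906 to 1.07. Its pooled SD within groups, 0.051, was at the 6.99th percentile of all genes.

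Idi1 encodes isopentenyl-diphosphate isomerase, which turns isopentenyl pyrophosphate into the dimethylallyl form that primes chain growth. Its log2 signal was 8.74, 8.72, 8.55 and 8.34 in KO samples 1 to 4, against 8.53, 8.44, 8.44 and 8.19 in WT samples 1 to 4. KO samples 1, 2 and 3 lay above all WT samples, while KO sample 4 lay below WT samples 1, 2 and 3. The difference was 0.19 (SE 0.098), a ratio of 1.14 with a 95% interval from 0.981 to 1.32, and it did not pass (limma adjusted p = 0.691).

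The order of the Idi1 values followed the first principal component closely. KO samples 1 and 2 were highest on both (16.5 and 9.02 on the component), and WT sample 4 was lowest on both. KO sample 4 (-7.78 on the component) was second lowest on both. The upper quartile of all probe sets was also highest in KO sample 1 (9.37) and lowest in WT sample 4 (9.24). Leaving out KO sample 1 and WT sample 4, a choice made after seeing the data, gave an Idi1 difference of 0.07 (SE 0.092). Without WT sample 4 alone it was 0.12. Those samples held the highest and the lowest Idi1 signal of the 8, so leaving them out had to shrink the difference. Without KO sample 4 it was 0.27, and with quantile normalization of all arrays it was 0.18 (SE 0.093). Whether the component bears on the Idi1 difference was not tested. The second Idi1 probe set is annotated to the same transcripts, so it is not independent. It gave 8.66, 8.73, 8.58 and 8.26 in KO and 8.52, 8.46, 8.43 and 8.24 in WT, a difference of 0.14 (SE 0.099).

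Idi2, the paralog of Idi1 known from human skeletal muscle, was dim. Its brighter probe set read 6.02, 6.35, 6.33 and 6.31 in KO and 6.00, 6.40, 6.21 and 6.62 in WT. The groups overlap, and the signal lies under the 25th percentile of all genes, 6.87, where changes are compressed. The difference was -0.05 (SE 0.121, limma adjusted p = 0.946) and its other probe set gave 0.01 (SE 0.088).

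Fdps, farnesyl pyrophosphate synthase, makes the branch-point isoprenoid that goes on either to sterols or to protein prenylation. It read 8.22, 8.18, 8.22 and 8.38 in KO samples 1 to 4, against 8.34, 8.26, 8.22 and 8.06 in WT samples 1 to 4. KO sample 4 was the highest and WT sample 4 the lowest of the 8. Among the rest, WT samples 1 to 3 all lay above KO samples 1 to 3. The closest were WT sample 3 (8.2225) and KO sample 3 (8.2223), which almost touch. The difference was 0.03 (SE 0.073, limma adjusted p = 0.946), a ratio of 1.02 with an interval from 0.916 to 1.14. Its sign rests on single samples, with -0.02 without WT sample 4 and -0.01 without KO sample 4.

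Fdft1, squalene synthase, commits farnesyl pyrophosphate to sterols by joining a pair of them into squalene. It read 12.31, 12.25, 12.32 and 12.30 in KO, against 12.21, 12.19, 12.28 and 12.40 in WT. The KO samples sit close together inside the WT range, with SDs of 0.03 in KO and 0.10 in WT. The difference was 0.02 (SE 0.061, limma adjusted p = 0.952), a ratio of 1.02 with an interval from 0.926 to 1.12. The other probe set, again annotated to the same transcripts, gave 0.03 (SE 0.057).

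Sqle, squalene epoxidase, adds the oxygen that precedes ring closure and is a rate-limiting step of the pathway. Its log2 signal was 7.53, 7.41, 7.72 and 7.66 in KO samples 1 to 4, against 8.02, 7.89, 7.57 and 7.64 in WT samples 1 to 4. WT samples 1 and 2 lay above all KO samples, while WT samples 3 and 4 lay inside the KO range. The difference was -0.20 (SE 0.102), a ratio of 0.871 with a 95% interval from 0.746 to 1.02 (limma adjusted p = 0.681). The difference was -0.12 without WT sample 1 and -0.27 without WT sample 3. Its pooled SD of 0.177 was at the 91.4th percentile of all genes, the largest of the 7.

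Lss, lanosterol synthase, folds oxidosqualene into lanosterol, the first sterol. It read 7.64, 7.58, 7.51 and 7.55 in KO samples 1 to 4, against 7.59, 7.53, 7.51 and 7.20 in WT samples 1 to 4. WT sample 4 lay apart below the rest, and the remaining 7 samples interleave. The difference was 0.11 (SE 0.083, limma adjusted p = 0.808), a ratio of 1.08 with an interval from 0.952 to 1.22. It was 0.02 without WT sample 4 and -0.0029 without both that sample and KO sample 1. Those samples were the lowest and the highest of the 8 for Lss, so leaving them out had to lower the difference. Without WT sample 1 the difference was 0.15.

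Cyp51, the lanosterol 14-alpha demethylase, is the cytochrome P450 that starts the trimming of lanosterol towards cholesterol. It read 8.24, 8.28, 8.29 and 8.13 in KO, against 8.45, 8.28, 8.24 and 8.25 in WT. WT sample 1 was highest and KO sample 4 lowest, and the other 6 lie between them. The difference was -0.07 (SE 0.066, limma adjusted p = 0.856), a ratio of 0.953 with an interval from 0.862 to 1.05, and it was -0.02 without WT sample 1 and -0.03 without KO sample 4.

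The enzymes did not share 1 pattern over the samples. WT sample 1 was the highest of the 8 for Sqle and Cyp51, KO sample 1 for Idi1 and Lss, KO sample 4 for Fdps, WT sample 2 for Hmgcs1 and WT sample 4 for Fdft1. WT sample 4 was at the same time the lowest of the 8 for Idi1, Fdps and Lss. Averaged over the 7 enzymes, log2 signal was 9.03, 9.00, 9.02 and 9.00 in KO and 9.11, 9.03, 8.97 and 8.90 in WT. The KO averages all fall inside the WT range, with SDs of 0.017 in KO and 0.090 in WT, and WT samples 1 and 4 form the ends.

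**Figure D2:**
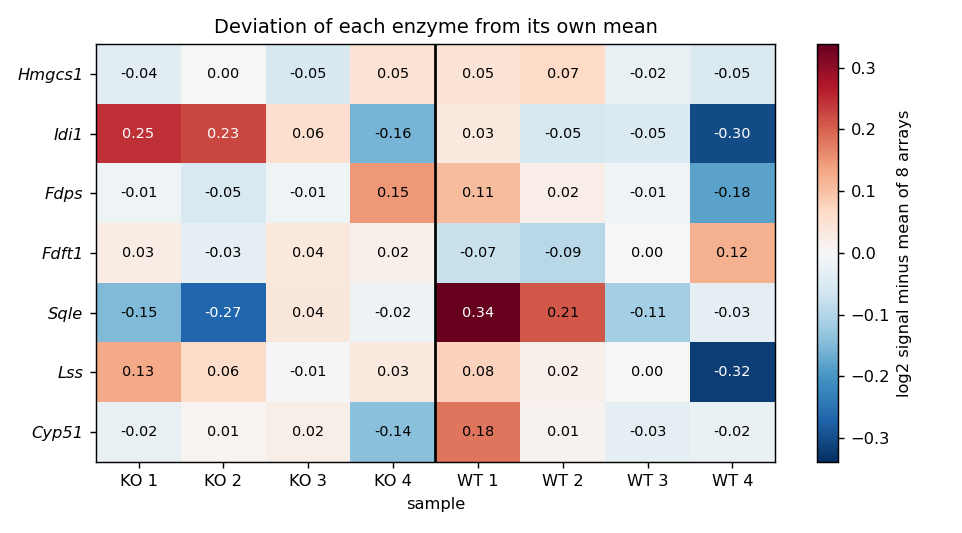
Each enzyme's log2 signal minus its own mean over the 8 arrays, by sample (columns, KO left of the line and WT right of it). Red is above and blue below that mean: Sqle is highest in WT sample 1 (0.34), Lss lowest in WT sample 4 (-0.32), and Fdft1 alone is highest in WT sample 4 (0.12).

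Outside the 7, the genes with profiles most like their mean profile were Mettl1, a transfer RNA methyltransferase, Bloc1s4, a subunit of a lysosome biogenesis complex, and Pik3r4, a regulatory subunit of the class III phosphoinositide kinase. They were followed by Gpatch3, a G-patch protein, Peg10, an imprinted retrotransposon-derived gene, and Aarsd1, an alanyl-tRNA editing protein. Likeness was Pearson's r over the 8 arrays with the mean of the standardised members, among 9964 genes brighter than the median gene, and ran from 0.953 for Mettl1 to 0.939 for Aarsd1. These 6 are the extremes of a search, so r only ranks them. Mettl1 read 9.02, 8.90, 8.91 and 8.98 in KO and 9.12, 8.93, 8.88 and 8.71 in WT. WT sample 1 was the highest and WT sample 4 the lowest in each of the 6, and KO and WT overlapped.

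Of 13 other enzymes of sterol synthesis listed, 11 were measured, and 0 passed in either direction over all genes (limma). At an unadjusted p under 0.05 in limma, 2 were higher in KO and 0 lower, beside 942 higher and 634 lower of all 19938 genes. The KO and WT values did not overlap for 2 of the 11, beside 4.9% of all genes. The median difference was 0.0066. Mvd, mevalonate diphosphate decarboxylase, makes the isopentenyl pyrophosphate that Idi1 acts on. It read 8.53, 8.51, 8.49 and 8.64 in KO, against 8.36, 8.38, 8.35 and 8.26 in WT, so all KO samples lay above all WT samples. The difference was 0.21 (SE 0.058), a ratio of 1.15 with an interval from 1.06 to 1.26, unadjusted p = 0.00396 and adjusted p = 0.325 in limma. Because its groups do not overlap, leaving samples out could not change its sign. Over the 17 alternatives the Mvd difference lay between 0.18 and 0.24 and passed in 0 of them (limma adjusted p from 0.195 to 0.614).

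Dhcr7, the reductase of the last step to cholesterol, read 9.14, 9.05, 9.10 and 9.00 in KO, against 8.90, 8.99, 8.99 and 8.88 in WT. Its groups do not overlap, but KO sample 4 and WT sample 3 almost touch, and the difference was 0.13 (SE 0.058, limma adjusted p = 0.605). Tm7sf2, a sterol C14 reductase, averaged 7.80 ± 0.02 in KO and 7.96 ± 0.20 in WT (SD, n = 4 each), with a difference of -0.16 (SE 0.086). Pmvk, phosphomevalonate kinase, averaged 8.75 ± 0.09 in KO and 8.80 ± 0.10 in WT. Over the 18 enzymes of both sets, 10 had a higher and 8 a lower mean in KO, where 51.4% of all genes had a higher mean.

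**Figure D3:**
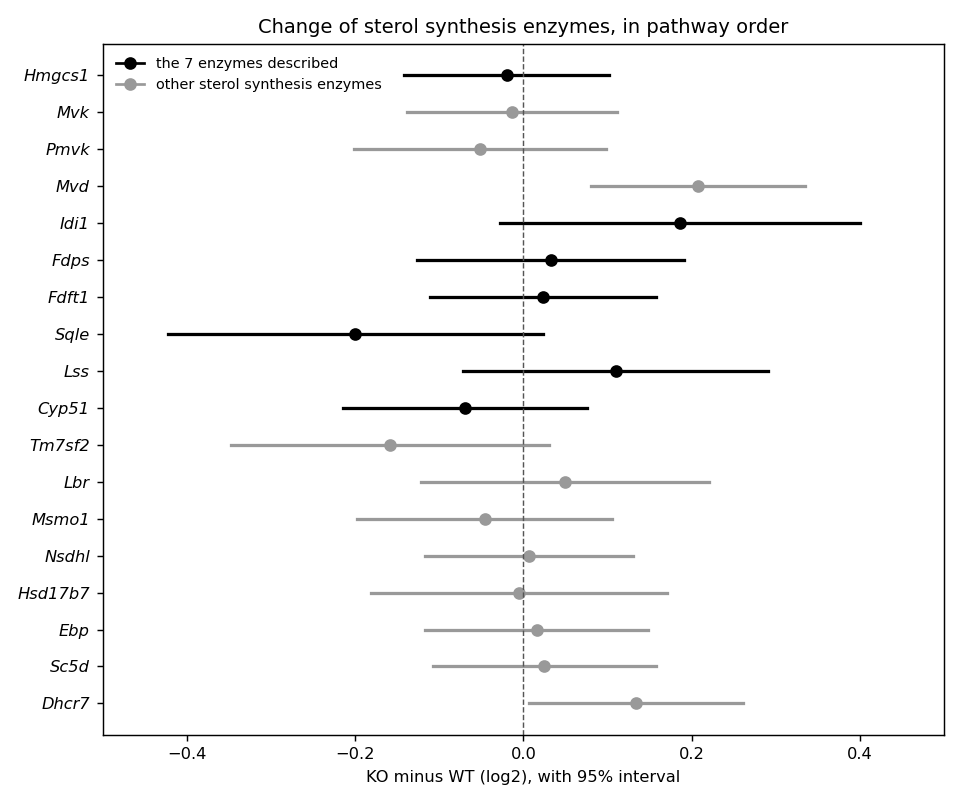
KO minus WT difference in log2 signal (x axis) with its 95% interval for 18 sterol synthesis enzymes, ordered down the page by step (the order among the enzymes after Cyp51 is approximate). The 7 enzymes described (black) all have intervals that include 0, and among the other 11 (grey) Mvd, at 0.21, and Dhcr7, at 0.13, do not.

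The regulators of the pathway gave no call either. Of 12 listed regulators of SREBP activity, 10 were measured, 0 passed over all genes in either direction, 0 had an unadjusted p under 0.05 in limma, and the median difference was 0.04. Srebf2, the SREBP that mainly drives sterol genes, averaged 9.14 ± 0.07 in KO and 9.13 ± 0.06 in WT (SD, n = 4 each), with a 95% interval of the difference from -0.12 to 0.14. Srebf1, which leans to fatty acid genes, read 9.83, 9.65, 9.75 and 9.40 in KO, against 10.00, 9.87, 9.74 and 9.77 in WT, a difference of -0.19 (SE 0.093, limma adjusted p = 0.669). KO sample 4 was the lowest of the 8 for Srebf1, and the other samples overlap. The difference was -0.10 without KO sample 4 and -0.25 without KO sample 1. Erlin1, which helps degrade sterol-sensing proteins, differed by 0.15 (SE 0.082), Rnf139, a ubiquitin ligase of the same system, by 0.11 (SE 0.082) and Insig2, an anchor of the SREBP complex, by 0.06 (SE 0.057). The Erlin1 difference was 0.09 without KO sample 1, 0.22 without KO sample 4 and 0.06 without both KO sample 1 and WT sample 4. KO sample 1 was the highest and WT sample 4 the lowest of the 8 for Erlin1, so leaving both out had to shrink the difference.

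Genes of sterol transport and sensing gave no call. Of 14 listed, 12 were measured, 0 passed, and the median difference was 0.03. At an unadjusted p under 0.05 in limma, 1 was higher and 0 lower, beside 942 higher and 634 lower of all 19938 genes. Lrp1, a large endocytic receptor, averaged 10.25 ± 0.13 in KO and 10.06 ± 0.13 in WT (SD, n = 4 each). The difference was 0.19 (SE 0.083, limma adjusted p = 0.611). It was 0.10 without KO sample 1 and WT sample 4, and 0.24 without WT sample 2. Lrp1 is also known from fibroblasts, whose 7 markers averaged 10.71 to 11.10 in KO and 10.57 to 10.88 in WT, and their part in it was not tested. Scarb1, the HDL receptor, differed by 0.10 (SE 0.081), Abca1, the cholesterol efflux pump, by -0.08 (SE 0.072) and Gramd1b, a carrier of plasma membrane cholesterol, by -0.14 (SE 0.111). Osbp, an oxysterol-binding protein, was the 1 gene of the 12 whose groups did not overlap, beside 4.9% of all genes. Its difference was 0.04, and it was singled out after its values were seen.

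On the isoprenoid branch, which leaves the chain at farnesyl pyrophosphate, 11 of 12 listed genes were measured, 0 passed, and the median difference was 0.04. At an unadjusted p under 0.05 in limma, 1 was higher and 0 lower, beside 942 higher and 634 lower of all 19938 genes. Pdss2, a subunit of the synthase that makes the coenzyme Q tail, read 9.61, 9.54, 9.52 and 9.39 in KO, against 9.43, 9.33, 9.37 and 9.24 in WT. KO samples 1 to 3 lay above all WT samples and KO sample 4 did not, for a difference of 0.17 (SE 0.065, limma adjusted p = 0.524). Without KO sample 1 and WT sample 4 it was 0.10, and without KO sample 4 it was 0.21. Nus1, a dolichol synthesis subunit, differed by 0.14 (SE 0.073). Its difference was 0.06 without KO sample 1 and WT sample 4, and 0.18 without KO sample 4. For both genes KO sample 1 was the highest and WT sample 4 the lowest of the 8. Leaving that pair out therefore had to shrink both differences. Fntb, the farnesyltransferase beta subunit, differed by -0.14 (SE 0.073) and Dhdds, the partner of Nus1, by -0.08 (SE 0.058).

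Fatty acid synthesis genes, the other arm of SREBP control, had a median pooled SD of 0.170 within groups, beside 0.106 for the 7 enzymes and 0.101 for all genes, a contrast that was not tested. All 13 listed were measured, 0 passed, and the median difference was 0.05. At an unadjusted p under 0.05 in limma, 0 were higher and 1 lower, beside 942 higher and 634 lower of all 19938 genes. Scd2, a stearoyl-CoA desaturase, read 9.96, 9.66, 10.07 and 9.14 in KO, against 10.34, 10.43, 9.72 and 10.03 in WT. The difference was -0.42 (SE 0.195, limma adjusted p = 0.630). It was -0.24 without KO sample 4 and -0.56 without WT sample 3. Over all samples, the unadjusted p of Scd2 in limma, 0.04999, sat at the cut itself. That p was 0.0445 with quantile normalization and 0.0634 with arrays centred on their median. WT samples 1 and 2 lay above all KO samples, and WT samples 3 and 4 lay inside the KO range. Acaca, acetyl-CoA carboxylase, differed by -0.19 (SE 0.098), Fads2, a fatty acid desaturase, by -0.07 (SE 0.056) and Elovl6, an elongase, by 0.16 (SE 0.154).

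The averages of adipocyte markers and of fatty acid synthesis genes had the same WT samples at their ends, and the average of the 7 enzymes had others. The 6 measured of 7 adipocyte markers averaged 8.97 to 9.32 in KO and 8.21 to 10.07 in WT, with WT sample 2 highest and WT sample 3 lowest. Fatty acid synthesis genes averaged 9.77 to 10.03 in KO and 9.58 to 10.17 in WT, again with WT sample 2 highest and WT sample 3 lowest. Not every gene of that list had WT samples 2 and 3 at its ends. In those samples the mean of the 7 enzymes stood at 9.03 (WT sample 2) and 8.97 (WT sample 3), and WT samples 1 and 4 held the ends. The ranges over the 8 samples were 1.86 for the adipocyte markers, 0.585 for the fatty acid genes, 0.213 for the 7 enzymes and 0.122 for the 11 other sterol enzymes, on the log2 scale. Markers of Schwann cells, which make much cholesterol for myelin, averaged 8.36 to 8.59 in KO and 8.49 to 8.78 in WT over the 5 measured of 8, with WT sample 2 again highest. The share of each cell type in the enzymes' signal was not tested.

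**Figure D4:**
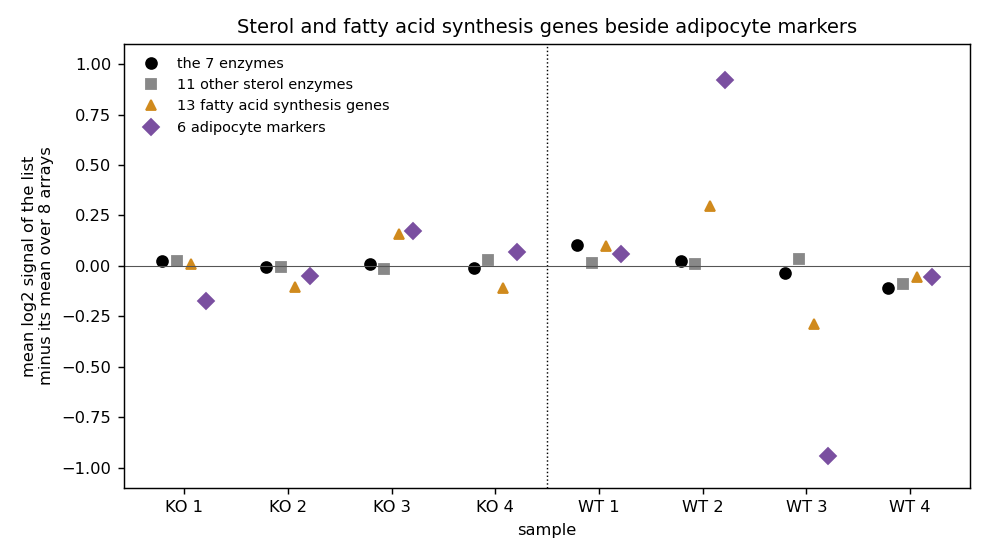
Mean log2 signal of 4 gene lists in each sample minus the list's mean over the 8 arrays (y axis), KO left of the dotted line and WT right of it. Adipocyte markers reach 0.92 in WT sample 2 and -0.94 in WT sample 3. The average of the fatty acid genes moves the same way there (0.29 and -0.29), though not every gene of that list does. The average of the 7 enzymes stays between -0.11 and 0.10 in all 8 samples.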

How the data were processed

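The authors deposited 1 table of log2 signals, 35556 probe sets by 8 arrays, made with Affymetrix Expression Console version 4.0 per the submitters' processing notes. How signals were background-corrected, summarised and normalized was not stated. The values themselves show a log2 scale. Array medians were 7.69 to 7.77. Per the labels' protocols, RNA had an integrity number above 8 and 150 ng was amplified. Values were not normalized again. Probe sets with exactly 1 symbol (21789) gave 19938 genes.

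Genotypes were compared with limma 3.58.1 in R 4.3.3 (lmFit, eBayes, genotype only), adjusted by Benjamini-Hochberg over all genes, threshold 0.05. The fit was tested on simulated data. SE is limma's moderated SE. The number of arrays limits the precision, and dim probe sets give compressed changes. Members and lists were chosen with earlier results of these data known. The genes named are the members, Hdac5, the Idi1 paralog, the 4 genes of smallest p per list and the 6 genes of most similar profile. Outside that rule, Srebf2 and Osbp were added after their values were seen, and the 5 measured hepatocyte markers are named as well. Other measured genes of the lists were fitted and counted but are not described singly, and pathway genes outside the lists are not reported here. Sequences came from RefSeq promoters of GRCm38.p6. Samples of the same number deviated together with correlations of 0.34, -0.11, -0.15 and 0.34, so the numbers were not taken as pairs. Plots used matplotlib 3.10.9.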

Additional observations from a re-analysis of the deposited data

Results flagged for a closer look

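Values were examined for the members, the 4 genes of smallest p per list, the Idi1 paralog and the averages of the lists and marker sets. Of these 84 groups of 4 values, KO and WT apart, 1 held a sample far from the other 3 by Dixon's criterion at the 95% level, where chance gives about 1 in 20. The brighter Idi2 probe set read 6.02 in KO sample 1, against 6.31 to 6.35 in the other KO samples. Idi2 is dim, and WT sample 1 read 6.00.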

How the results depend on the processing

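The 7 enzymes were refitted under 17 alternatives, 15 set in advance and 2 chosen after seeing the data. In 0 of the 119 resulting values did an enzyme pass (lowest limma adjusted p 0.310, for Idi1 with the replicate block). The unadjusted p in limma did fall under 0.05 in some settings. For Idi1 it was 0.00984 with the replicate block and 0.0100 without KO sample 4. For Sqle it was 0.0212 without WT sample 3, 0.0321 with array weights, 0.0462 without WT sample 4 and 0.0489 without KO sample 3. Signs were kept except for Fdps with array weights (-0.0222) and without KO sample 4 (-0.0108), WT sample 4 (-0.0224) or both KO sample 1 and WT sample 4 (-0.0122), for Fdft1 without WT sample 2 (-0.0040) or both WT samples 2 and 3 (-0.0114), and for Lss without both KO sample 1 and WT sample 4 (-0.0029). Leaving out 1 sample at a time gave -0.04 to -0.00059 for Hmgcs1, 0.12 to 0.27 for Idi1, -0.0224 to 0.0734 for Fdps, -0.0040 to 0.0672 for Fdft1, -0.27 to -0.12 for Sqle, 0.02 to 0.15 for Lss and -0.09 to -0.02 for Cyp51. The number of changed genes among all genes, 13, was 23 with quantile normalization, 44 with a trended and robust eBayes, 31 with array weights, 36 with dim genes left out (fewer genes tested), 30 with the replicate block (a pairing the labels do not state), 5 without both KO sample 1 and WT sample 4, 4 without both WT samples 2 and 3, and 5 to 20 without any 1 sample. For the other counts the cause was not tested. The median of the 7 enzymes, 0.02, lay between -0.0224 (without WT sample 4) and 0.0382, with a sign below 0 also with array weights, without KO sample 4, WT sample 2, both KO sample 1 and WT sample 4, or both WT samples 2 and 3. None of the 96 recomputed list medians moved by more than 1 SD of its list's average signal between samples (range -0.03 to 0.07). That SD is one of signal and not of differences, so it is a loose yardstick, and some medians changed sign within it. The replicate block leaves each difference as it is, so those medians could not move. With 4 arrays per genotype the 95% intervals still reach 0.40 for Idi1 and -0.42 for Sqle.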
